A study of Mus musculus with 8 samples.

Results

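The 4 libraries of wild-type endothelium, out of 8 libraries in the series, describe the baseline transcriptome of the blood vessel lining of the early postnatal mouse brain. They were taken as all libraries labelled WT1 to WT4, and no other library was used. Each holds total RNA of endothelial cells obtained by fluorescence-activated sorting from the brain of wild type C57BL/6J mice at P8, that is postnatal day 8. The labels of this group list no transgene, floxed allele, Cre driver or treatment. They do not name the markers of the sort, the sex of the mice or the number of mice behind a library, so the spread between libraries, given as SD with n = 4, may be biological or technical. With 1 group there is no contrast, and levels, ranks and detection are given without a test.

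The deposited values were log2 values that were returned to the linear scale, where they are termed scaled reads, that is reads after scaling to a common library size. Library totals were 10290693 to 10931831 scaled reads, and 1 read was worth 0.611 to 1.44 scaled reads, which implies 7448330 (WT2) to 16840171 (WT1) reads in a library. A value under 1 scaled read stands at 0 here. A symbol with 1 read is thus at 0 in WT1, WT3 and WT4, where 1 read was worth 0.611, 0.866 and 0.995. In WT2, at 1.44, it is above 0, so detection limits differ between libraries. Rn45s, an entry for the ribosomal RNA precursor, took 8.39% to 13.5% of each total and is left out of all shares below unless it is named. Values of 4 libraries are always in the order WT1, WT2, WT3, WT4. Levels of different genes are compared per kilobase of exon, with the union of annotated exons as the length. Reads of a 3-prime tag protocol would not scale with length, and the labels name a Quant-Seq kit, a name used for such a protocol. Division by length may thus place short genes too high and long genes too low. Orders stated for 4 of 4 libraries were therefore also checked without division by length, and those that change are given as such. Other orders per kilobase may change without it.

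Endothelial cells line every blood vessel. In the brain they form the blood-brain barrier, in which claudin-based tight junctions close the gaps between cells, few vesicles cross the cell, and carriers and efflux pumps decide which solutes pass. Wnt signals from neural cells act through beta-catenin to set up these properties, while VEGF, Notch and BMP signals steer sprouting and the choice between artery, capillary and vein. In the mouse the brain vasculature still grows during the postnatal days in which these cells were taken.

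Of 24394 symbols shared by the 4 tables, 6690 (27.4%) were above 0 in all 4 libraries and 12351 (50.6%) were listed at 0 in all 4. The remaining symbols were above 0 in 3 libraries (1884), 2 libraries (1485) or 1 library (1984). The 100 highest symbols of a library took 33.4 ± 2.69% of all scaled reads (mean ± SD, n = 4), and 24.8 ± 1.14% once Rn45s was left out. By the mean over the libraries, the 10 highest symbols other than Rn45s took 7.64% of reads, the 1000 highest 61.6% and the 5000 highest 93%. Protein-coding genes carried 97.5 ± 0.279% of reads, long noncoding genes 1.06 ± 0.0737% and pseudogenes 0.699 ± 0.206%.

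The 4 markers that stand for the cell type were high in every library. Cldn5, the claudin of endothelial tight junctions, was at 15160, 20652, 16214 and 22227 scaled reads. Kdr, the VEGF receptor 2, was at 23235, 15914, 24171 and 14563. Pecam1, an adhesion molecule of endothelial cell contacts, was at 15150, 13225, 15350 and 8169. The level was lowest for Cdh5, VE-cadherin of the adherens junction, with 3023, 1923, 3835 and 1555. WT4 had the lowest value of Kdr, Pecam1 and Cdh5 and the highest of Cldn5, and no library was near 0 for any of them. Per kilobase, Cldn5 ranked 20 of all symbols with a length, Kdr 214, Pecam1 221 and Cdh5 878. Without division by length the ranks were 39, 34, 67 and 724. On GRCm38, Cldn5 lies at chr16:18776847-18778262, Kdr at chr5:75932827-75978458, Pecam1 at chr11:106654217-106750628 and Cdh5 at chr8:104101625-104144511.

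All 30 genes of the endothelial identity list were above 0 in all 4 libraries, against 27.4% of all symbols, and 29 of them averaged 1000 scaled reads or more. Together they took 3.02, 2.96, 3.14 and 3% of reads, a range of 2.96% to 3.14%. This was the narrowest relative spread among the 9 gene groups drawn in the plot of group shares. Egfl7, a secreted factor of endothelial cells, led the list at 25771 ± 1266 scaled reads per kilobase, above Cldn5 at 13110 ± 2408 in 4 of 4 libraries. Esam, an adhesion molecule of endothelial junctions, followed at 6660 ± 785, below Cldn5 in 4 of 4, but in only 2 of 4 without division by length. Cd93 (3125 ± 568) stood above Kdr (2156 ± 546) in 4 of 4 libraries and in 3 of 4 without division by length, whereas Kdr, Pecam1 (2083 ± 537), Ramp2 (2069 ± 368) and Cd34 (2038 ± 329.6) did not differ beyond their spread. The lowest member with a mean under 1000 was Sox7, a SOX-F factor, at 480.4, 86, 600.1 and 233 scaled reads.

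**Figure D1:**
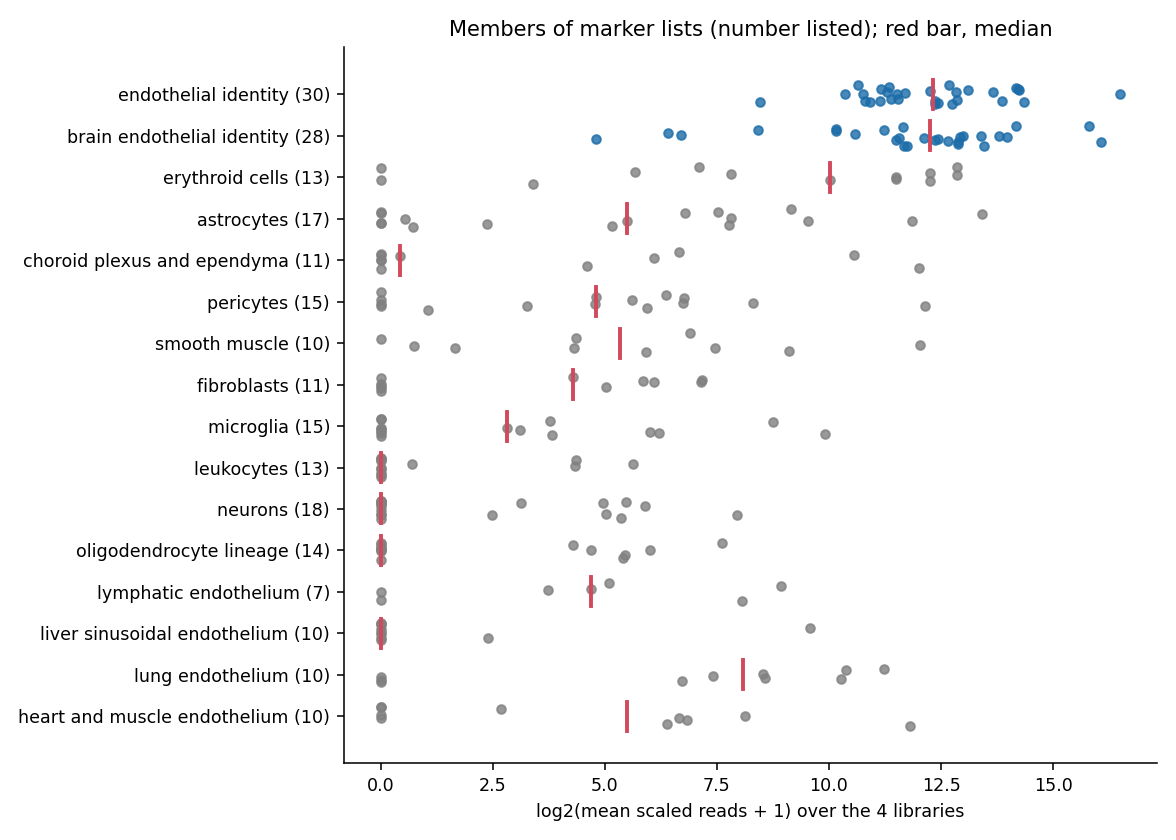
Mean level of each member of the marker lists, as log2(mean scaled reads + 1) over the 4 WT libraries, with 1 point per gene, the number of listed genes in brackets and the list's median as a red bar. All 30 endothelial identity genes lie to the right of the medians of the lists of other cell types, except that Sox7 lies to the left of the erythroid median.

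The highest single transcripts joined matrix, cytoskeleton and barrier genes. Sparc, a secreted protein that binds collagen, was the highest symbol after Rn45s with 93068, 118047, 113081 and 135225 scaled reads. Egfl7 had 92682, 86836, 91723 and 97899. App, the amyloid precursor protein, had 92425, 63612, 89836 and 74709. Sparc was lowest in WT1 and App was lowest in WT2, while Egfl7 varied by only 4.91% (coefficient of variation, CV, the SD as a percent of the mean). Tmsb4x, an actin-binding peptide, had 58534, 77828, 47053 and 101773, and Actb, cytoplasmic actin, had 57769, 71765, 74969 and 78750. Bsg, the basigin glycoprotein that escorts monocarboxylate carriers, had 55454, 88660, 55801 and 74554. Fn1, fibronectin, had 58130, 61530, 79960 and 58292. Fibronectin was highest in WT3, and Tmsb4x ranged more widely than the others of this group, with a CV of 33.6%.

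Next in order were Slc7a5, the light chain of the large neutral amino acid carrier, at 57031 ± 15132 scaled reads, Serpinh1, a collagen chaperone, at 52784 ± 6796, Sepp1, a selenium transport protein, at 50106 ± 9925, Tsc22d1 at 42087 ± 7810, Fth1, the ferritin heavy chain, at 39185 ± 4001, and Hdac7, a class IIa histone deacetylase, at 36384 ± 6372. Per kilobase the order changed to Tmsb4x (52004 ± 17476), Bsg (37826 ± 8858), Sparc (30321 ± 4580) and the ribosomal protein Rplp1 (30160 ± 13562). Long genes moved down, as App went from rank 4 to 52 and Fn1 from 8 to 57. Several of the 10 highest entries per kilobase are very short, namely Mir682 (96 bases), Rnu11 (134 bases) and Mir703 (109 bases), and their per-kilobase values rest on length rather than on a large number of reads. Mir682 had 2673, 3134, 1637 and 3910 scaled reads and rank 650 without division by length. Of the 100 highest symbols in each library, 60 were in the 100 of every library, and 2 libraries shared 65 to 80.

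**Figure D2:**
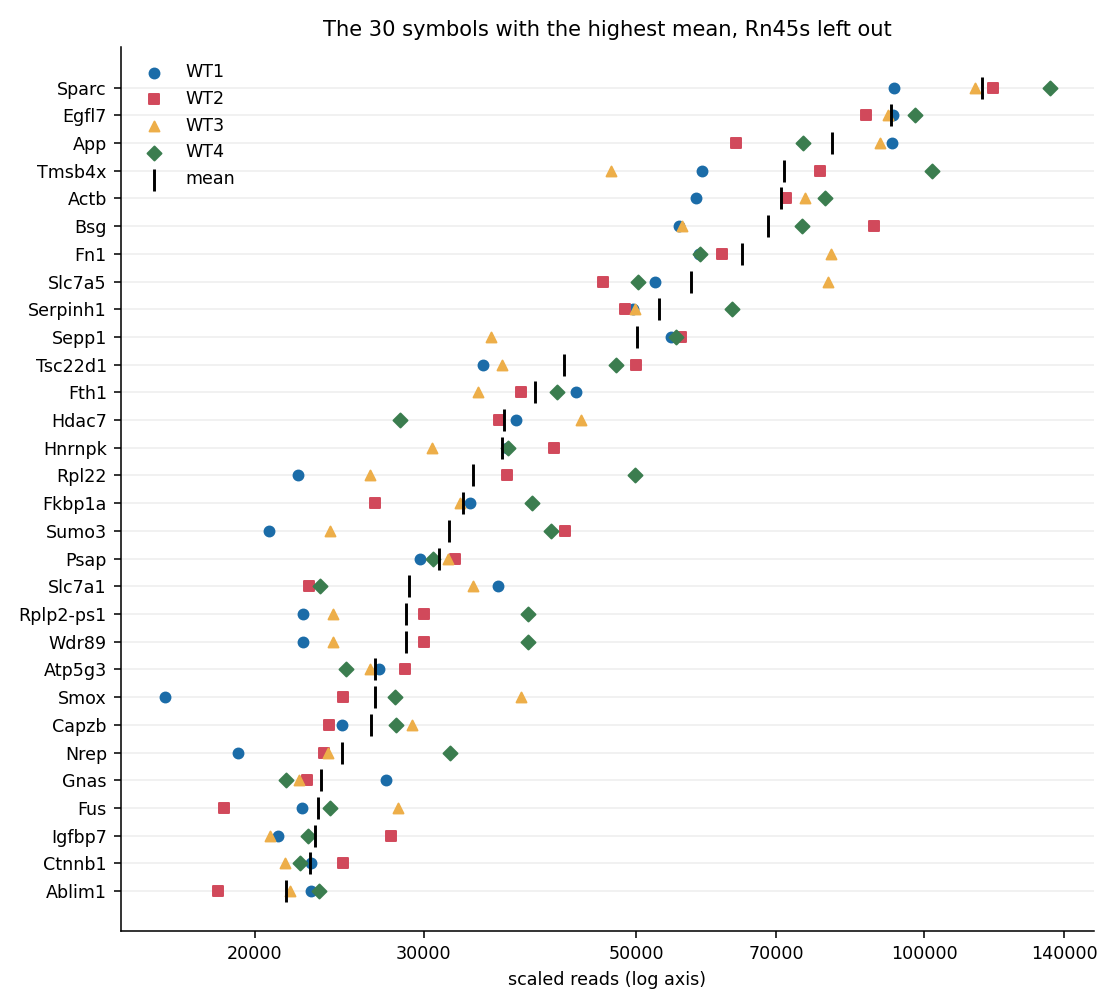
The 30 symbols with the highest mean in WT1 to WT4 apart from Rn45s, with scaled reads on a log axis, 1 marker per library and a black bar at the mean. Sparc and Egfl7 lead, and the libraries lie close together for Egfl7, Psap and Atp5g3 and apart for Tmsb4x, Rpl22 and Sumo3. Wdr89 and Rplp2-ps1 have identical values.

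Among tight junction genes 13 of 20 (65%) were above 0 in all 4 libraries, against 27.4% of all symbols. Another 4 were above 0 in some, and Cldn1, Cldn3 and Cgn (15%, against 50.6% of all symbols) in none. Counts of list and family members below are to be read against the same shares. The lists hold known genes and were chosen with earlier results of these data known. Cldn5 accounted for 98.7% of all claudin reads (95.5% to 100% by library), and 27 of the 32 listed claudins were at 0 in every library. Cldn12, a claudin also named in brain vessels, had 661, 5.78, 3.45 and 0 scaled reads, so that WT1 held nearly all of its signal. Lsr, the angulin of tricellular contacts, reached 7351 ± 903 scaled reads per kilobase and did not differ beyond its spread from Esam. F11r, the junctional adhesion molecule JAM-A, had 1218 ± 282 and Cgnl1, paracingulin, 1178 ± 262. Tjp1, which encodes the scaffold protein ZO-1, lay lower at 405 ± 236. Tjp1 varied between libraries with 3756, 1236, 5450 and 2210 scaled reads, lowest in WT2. Ocln, occludin, was at place 12 of the 20 per kilobase with 318, 279, 179 and 686.

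The adherens junction list had 16 of 18 genes above 0 in all 4 libraries. Ctnnb1, beta-catenin, was its highest member with 22867, 24730, 21514 and 22288 scaled reads, a CV of 6%. Rasip1, a Rap1 effector needed for vessel lumens, had 2362 ± 331 scaled reads per kilobase, Pecam1 2083 ± 537, Ctnnd1, p120-catenin, 1444 ± 584, and Cdh5 615 ± 248. Ctnnb1, Rasip1, Pecam1, Ctnnd1 and Cdh5 stood in this order in 4 of 4 libraries. Without division by length Pecam1 was above Rasip1 in 4 of 4, and above Ctnnd1 in 3 of 4. Of 23 cadherin symbols, 3 were above 0 in all 4 libraries, namely Cdh5, Cdh2 (N-cadherin, 2487, 1701, 1814 and 1588 scaled reads) and Cdh11 (486, 439.9, 665 and 434). This is 13.0%, against 27.4% of all symbols, and 17 (73.9%, against 50.6%) were at 0 throughout.

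Carriers of the blood-brain barrier were among the highest genes of these cells. In the nutrient and ion transporter list 28 of 30 genes were above 0 in all 4 libraries, 23 averaged 1000 or more, and the list took 2.49 ± 0.237% of reads. Slc7a5 led with 52281, 46181, 79408 and 50256 scaled reads, highest in WT3. Its heavy chain partner Slc3a2 had 14756, 20868, 17768 and 22196. Per kilobase Slc7a5 (15381 ± 4081) stood above Slc3a2 (5355 ± 943) in 4 of 4 libraries, and Slc3a2 above Slc16a1, the monocarboxylate carrier MCT1 (3652 ± 377), in 4 of 4, though in 3 of 4 without division by length. Mfsd2a, the carrier of lysophosphatidylcholine that carries docosahexaenoic acid, had 3607 ± 646, which lay within the spread of Slc16a1. Slc22a8, an organic anion carrier, had 3294 ± 540.5, and Slc7a1, the cationic amino acid carrier, 2513 ± 594.

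Slco1c1, a carrier of thyroxine, had 12748, 16305, 15266 and 12305 scaled reads, highest in WT2. It held 48.3% of all reads of the 15 listed Slco genes. Slco2b1 (1883 ± 488 scaled reads per kilobase) and Slco1a4 (530.4 ± 104) followed, Slco2b1 above Slco1a4 in 4 of 4 libraries, and 5 Slco genes were at 0 throughout. Slc2a1, the glucose carrier GLUT1, had 3437, 5327, 5461 and 3596 scaled reads and rank 397 per kilobase, below 12 other genes of the transporter list. WT2 and WT3 were the higher libraries for it, and WT1 and WT4 the lower. Of 373 solute carrier symbols in all, 98 were above 0 in every library and 175 in none, shares of 26.3% and 46.9% that lie near the 27.4% and 50.6% of all symbols, and Slc7a5 alone took 20.4% of their reads.

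Efflux pumps lay below the leading carriers and above the lowest ones. Abcb1a, which encodes P-glycoprotein, had 3385, 2110, 3456 and 2535 scaled reads and was the highest of 50 ABC transporter symbols, of which 13 were above 0 in all 4 libraries and 22 in none, again near the background. Abcc4 had 2432, 563, 1764 and 1456, with WT2 well below the others. Abcg2, the breast cancer resistance protein, was outside the rule for named genes and was added after its values were seen, with 929.9, 961, 1500 and 1193 scaled reads. Per kilobase the 3 pumps were at 524 ± 120.1, 243 ± 121 and 141 ± 32.3.

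Receptor-mediated transport was represented by Tfrc, the transferrin receptor (1820 ± 386 scaled reads per kilobase), Lrp8, a receptor for apolipoprotein E and reelin (1100 ± 469), and Fcgrt, the neonatal Fc receptor (799.7 ± 153). The caveolar genes Ptrf, which encodes cavin-1 (2534 ± 212), and Cav1, caveolin-1 (561 ± 125), were above 0 in all 4 libraries. Ptrf was even between libraries (CV 8.36%). Plvap, the diaphragm protein of fenestrated vessels, was added after its values were seen and had 352, 71.7, 417 and 675 scaled reads, which is rank 4255 without division by length.

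**Figure D3:**
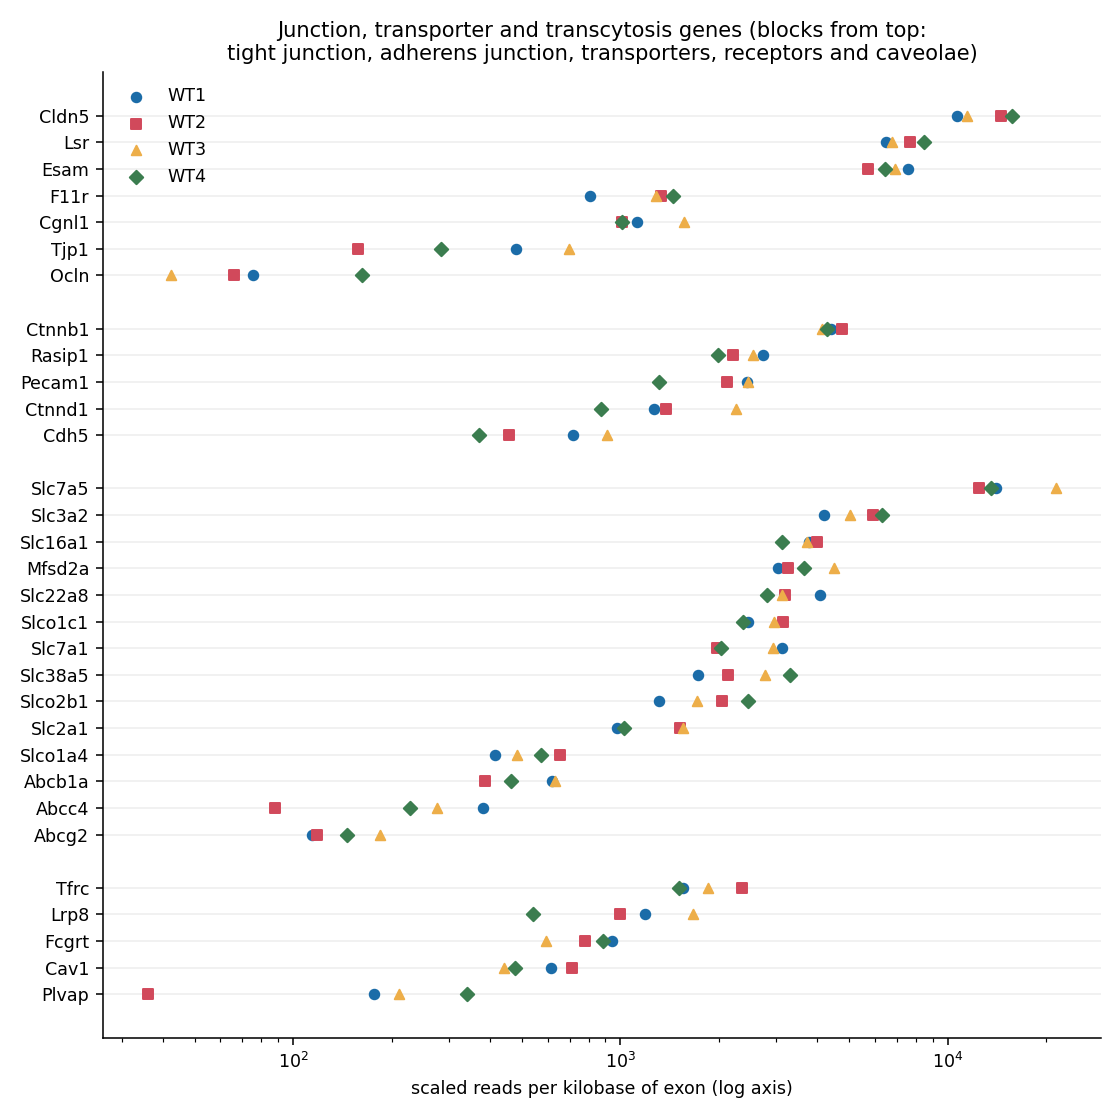
Scaled reads per kilobase of exon (log axis) for tight junction, adherens junction, transporter, receptor and caveolar genes, with 1 marker per WT library. Slc7a5 and Cldn5 lie highest, with all libraries above those of the other genes drawn, while Ocln, Abcg2 and Plvap lie lowest, and Plvap and Abcc4 have a WT2 value far below the other libraries.

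Kdr was the highest of the receptors for vascular growth factors in every library. In the VEGF and Tie list 13 of 19 genes were above 0 in all 4 libraries. Kdr (2156 ± 546 scaled reads per kilobase) exceeded Nrp2, a co-receptor (739 ± 246), in 4 of 4, whereas Nrp2, Tek, the receptor TIE2 (633 ± 229), Flt1, the VEGF receptor 1 (543 ± 129), and Tie1 (464 ± 47.9) overlapped. Flt4, the VEGF receptor 3, was low with 294, 1048, 535 and 83.5 scaled reads, and Pgf, placental growth factor, was at 0 throughout. The ligand gene Vegfa, added after its values were seen, was at 0, 25.8, 273 and 0.

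Genes of the Wnt pathway were above 0 in all 4 libraries in 20 of 24 cases. Fzd6, a Frizzled receptor, was the most abundant receptor of the list with 6454, 5568, 8318 and 4105 scaled reads, lowest in WT4. The genes that follow are known for brain vessels and were added after their values were seen. Fzd4, the norrin receptor, had 567, 83.2, 559.5 and 173, Lrp5 had 381, 307, 180.1 and 357 and Tspan12 had 381, 394, 239 and 318. Adgra2 and Reck, which together pass on the Wnt7 signal to brain endothelium, were at 0, 0, 17.3 and 317 and 0, 11.5, 96.3 and 0, and each was at 0 in 2 libraries. The Wnt effector Lef1 had 3254, 1230, 701 and 937, highest in WT1, and Axin2, a common Wnt target, 23.3, 66, 619.9 and 374.

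In the Notch list 14 of 19 genes were above 0 in all 4 libraries. Hes1, a repressor induced by Notch, led at 3162 ± 1066 scaled reads per kilobase, Nrarp, a feedback inhibitor, had 997 ± 282, the fringe Mfng 541 ± 118, and the ligand Dll4 355 ± 85.7. Hes1 was above Nrarp and Nrarp above Mfng in 4 of 4 libraries. Hey2 was at 0 throughout. In the BMP and TGF-beta list 17 of 24 genes were above 0 in all 4. The immediate BMP targets Id3 (3184 ± 754) and Id1 (3030 ± 649) did not differ beyond their spread, and Id1 was above the receptor Acvrl1, ALK1 (1877 ± 316), in 4 of 4, but in 0 of 4 without division by length. Acvrl1 and its partner endoglin, Eng (1844 ± 387), had near-equal levels. Apln, the apelin ligand of tip cells, was even between libraries at 6295, 5312, 6144 and 6299 scaled reads, and 18 of 20 tip cell genes were above 0 in all 4.

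Arterial and venous genes were present together. Of the arterial list 16 of 21 were above 0 in all 4 libraries, and of the venous list 12 of 16. Sox17 (1846 ± 457 scaled reads per kilobase), Cxcl12, a chemokine (1310 ± 228), and the netrin receptor Unc5b (1035 ± 372) led the arterial list. Without division by length Cxcl12 was highest by the mean, with 27.8% of the reads of that list. Cxcl12 held 88.1% of the reads of 39 chemokine ligand genes. Gja4, connexin 37, had 609 ± 124, Gjc1, connexin 45, 402 ± 129, and Gja1, connexin 43, 55.2 ± 11.7, each above the next in 4 of 4 libraries, while Gja5, connexin 40 of larger arteries, was at 0, 0, 34.6 and 0 scaled reads. Without division by length Gjc1 was above Gja4 in 4 of 4 and held 55.0% of connexin reads. Tmsb10 (11968 ± 2518 scaled reads per kilobase), the amino acid carrier Slc38a5 (2481 ± 688) and the carbonic anhydrase Car4 (1218 ± 528) were among the highest of the venous list. The leukocyte selectins Sele and Selp, adhesion molecules of activated and venous endothelium, were at 0 in all 4 libraries, whereas the sialomucins Cd34 and Podxl (1849 ± 295) were high.

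Transcription factors of endothelial cells were nearly all detected, 35 of 38 in all 4 libraries, and together took 1.17 ± 0.13% of reads. Lmo2, a bridging factor of blood and endothelial complexes, was highest at 11458, 18510, 10907 and 13290 scaled reads, above Sox17 per kilobase (6252 ± 1600 against 1846 ± 457) in 4 of 4 libraries, and in 3 of 4 without division by length. Sox17, Sox18 (1644 ± 782), Erg, an ETS factor of endothelial identity (1582 ± 283), and Epas1, HIF-2alpha (1526 ± 369), overlapped. A single member dominated several families. Sox17 held 52.1% of SOX reads, Foxp1 45.4% of Forkhead reads, Ets1 36.2% of ETS reads and Gata2 97.6% of GATA reads. Of 46 Forkhead symbols, Foxq1, a factor of brain endothelium, was highest per kilobase (1334 ± 281) and stood above Foxp1 (862 ± 146) in 4 of 4 libraries, but in 0 of 4 without division by length, and Foxf2 (484 ± 241) followed. Foxc2 and Foxo3 were at 0 throughout. Hox genes, which mark positions along the trunk, were almost empty, with 0 of 39 above 0 in all 4 libraries, against 27.4% of all symbols. At 0 in every library were 29 (74.4%, against 50.6% of all symbols).

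The basement membrane, the matrix sheet shared by endothelium and pericytes, was well represented. Of the matrix list 20 of 29 genes were above 0 in all 4 libraries, taking 2.6 ± 0.236% of reads, of which Sparc held 46.8%. Col4a1, a collagen IV chain, had 9981, 9749, 11658 and 9575 scaled reads and Col4a2, its partner chain from the neighbouring gene, 5319, 7691, 6640 and 5861. Per kilobase they were at 1372 ± 129 and 964 ± 156. Of 45 symbols named like collagens 26 were at 0 in all 4 libraries, a share near the 50.6% of all symbols, among them the collagen IV chain Col4a5. The 45 include Col4a3bp, which encodes a ceramide transfer protein and no collagen. The fibrillar Col1a1, a gene of fibroblasts, had 0, 4.35, 0 and 266 and Col1a2 114, 11.5, 0 and 0, nearly all of it in 1 library each. Lama4, the laminin chain of vessels, led the laminins at 205 ± 66.3 per kilobase, and Lamc1 (178 ± 32.2), Lamb2 (168 ± 54) and Lamb1 (157 ± 61.5) did not differ from their neighbours beyond their spread. Of integrins, Itgb1 (1673 ± 347) was above Itga6, the laminin receptor chain (638 ± 153), in 4 of 4 libraries (3 of 4 without division by length), and the leukocyte integrins Itgal and Itgam were at 0.

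Detection in all 4 libraries varied between housekeeping families. Of mitochondrial ribosomal proteins 57 of 77 were above 0 in all 4 libraries and none was at 0 throughout, of initiation factors 43 of 55, and of proteasome subunits 35 of 40. All 33 genes of the small ribosomal subunit and 48 of 51 of the large subunit were above 0 in all 4 libraries. Those outside were Rpl3l, Rpl10l and Rpl39l, copies known from muscle or testis, named after their values were seen. Cytosolic ribosomal proteins took 1.96, 3.34, 2.09 and 4.05% of reads, more in WT2 and WT4 than in WT1 and WT3. Rplp1, of the ribosomal stalk, was highest per kilobase with 8903, 19921, 9561 and 21814 scaled reads, and Rpl22 highest without division by length with 22180, 36662, 26359 and 49909. Ribosomal protein genes have many near-identical pseudogenes, so that the split of reads among copies is uncertain. Wdr89 and Rplp2-ps1 had exactly equal values in every library (22428, 30007, 24104 and 38538), as did Rpl26 and Gm15772.

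Of the mitochondrial chain 71 of 80 symbols were above 0 in all 4 libraries. The NADH dehydrogenase subunit Ndufs8 (0, 102, 171 and 1346 scaled reads) and Ndufa4l2 (0, 4.36, 0 and 0) were at 0 in some. Ndufa4l2 is counted here by its name only and is also in the pericyte list. Of 18 cytochrome c oxidase symbols 11 were above 0 in all 4 and 7 in none. The absent ones, named as the whole set at 0, were Cox4i2, Cox6a2, Cox6b2, Cox7a1, Cox7b2, Cox8b and Cox8c, which are isoforms of lung, muscle or testis, while their common counterparts such as Cox7a2 (2860, 5898, 2639 and 5646 scaled reads) and Cox8a were present. All 17 ATP synthase and all 8 ubiquinol-cytochrome c reductase symbols were above 0 throughout. Atp5g3, a subunit of the membrane ring, held 47.8% of ATP synthase reads and was even at 26950, 28665, 26359 and 24902. Among elongation factors Eef2 (5611 ± 312 scaled reads per kilobase) and Eef1a1 (5383 ± 1901) did not differ beyond their spread, and the muscle and neuron form Eef1a2 was at 0.

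Glycolysis genes were detected in 16 of 19 cases in all 4 libraries, at moderate levels. Ldha, lactate dehydrogenase, led per kilobase (1388 ± 488), followed by Slc2a1 (1271 ± 310.1), Aldoa (584 ± 175), Pkm (494 ± 174) and Pfkfb3, which makes the activator of phosphofructokinase (383 ± 88.7). Gapdh was added after its values were seen, as it was low for a gene that nearly all cells use, with 98.3, 126, 8.65 and 25.9 scaled reads. Gapdh has many near-identical pseudogenes that could share its reads, which was not tested, so its level is uncertain. Eno2 stood at 0 in all 4. Of the cell cycle list 21 of 31 genes were above 0 in all 4 libraries. Ccnd1, cyclin D1, held 39.6% of the reads of that list and was even at 12220, 11331, 13522 and 13363, above Ccnd3 (661 ± 176 per kilobase) in 4 of 4. Of the same list 25 genes averaged 100 scaled reads or more, and Bub1 alone was at 0 throughout. The proliferation marker Mki67, added after its values were seen, had 56.5, 0, 101 and 0. It was among the lowest of the list per kilobase (3.92) and does not stand for the other members.

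**Figure D4:**
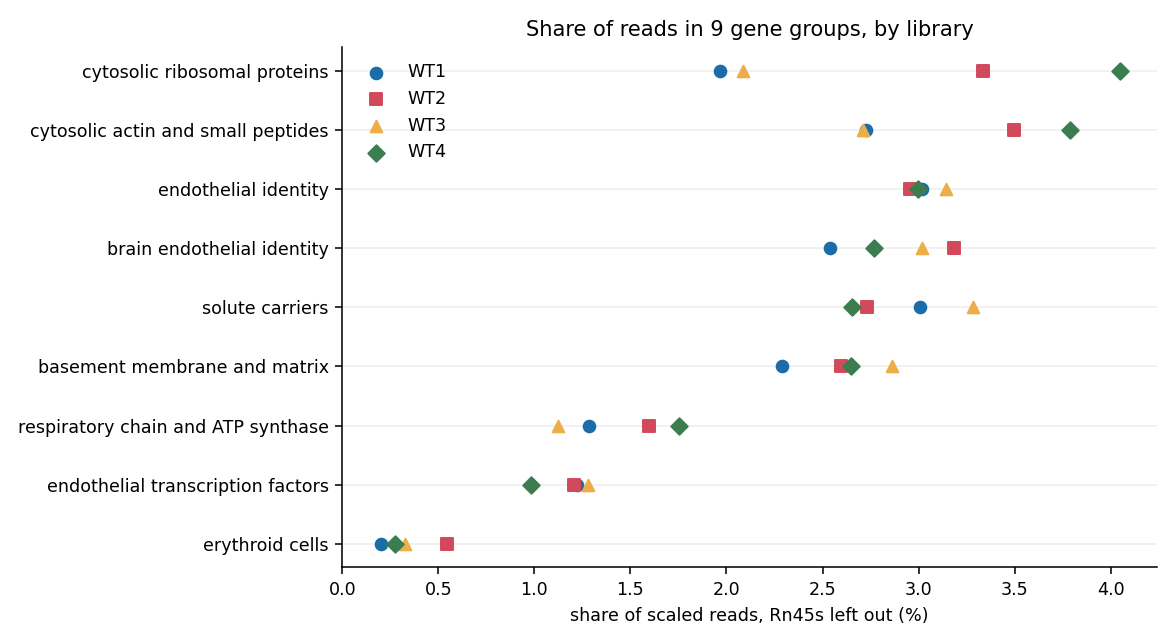
Share of scaled reads, without Rn45s, in 9 gene groups for each WT library, in percent. The endothelial identity list lies between 2.96% and 3.14% in all 4 libraries, while ribosomal proteins range from 1.96% to 4.05%, higher in WT2 and WT4.

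Families that are used by other tissues were absent almost as whole families. All 61 defensins and all 53 keratin-associated proteins were at 0 in every library. Of olfactory receptors 1121 of 1125 were at 0 in all 4, of vomeronasal receptors 327 of 338, of taste receptors 37 of 38, of caseins and major urinary proteins 24 of 25, of keratins 45 of 48 and of cytochrome P450 genes 94 of 104. The background for these counts is the 50.6% of all symbols that were at 0 in all 4 libraries. Krt10, a keratin, had 47.9, 152, 174 and 58.7 scaled reads, and Cyp2d22, the highest cytochrome P450 gene, 899.5, 307, 745 and 1033, while no olfactory receptor was above 0 in all 4 libraries. In total 20506 symbols matched protein-coding genes, of which 9130 were at 0 in every library. The limit that a count of 0 allows is 3 reads, which is 1.83 to 4.32 scaled reads in a library, and this covers counting error only. The limit is too low for WT1, WT3 and WT4, where a symbol with 1 read is also listed at 0.

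Promoters of detected and undetected genes differed in composition, which is given as a description. Windows of 250 bases before and 50 bases after the start were taken from RefSeq on GRCm38.p6 for the 15023 symbols with exactly 1 window. The median number of CG pairs was 18 for the 4142 symbols above 0 in all 4 libraries, 15 for 3312 symbols above 0 in some, and 3 for the 7569 at 0 in all 4. The GC box letters GGGCGG, searched on both strands, were in 65.0%, 56.2% and 23.8% of these windows, against 42.3% of all windows, and the TATA letters TATAAA in 6.08%, 6.46% and 18.9%, against 12.6%. Endothelial identity genes went against the first of these patterns, with a median of 5 CG pairs in the 11 windows found for the 30 genes. Of these 11, 7 (63.6%) held the ETS core letters AGGAAG on either strand, against 28.6% of all windows. The brain endothelial identity list did not share this, with the core in 5 of 15 windows (33.3%). Neuronal genes held it in 3 of 8 (37.5%), and symbols above 0 in all 4 libraries in 26.9%. ETS factors bind sites with such a core in many endothelial genes. A match of letters is not a bound site, and windows of 1 set differ in many ways from those of another.

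The 250 bases before the start are shown for 4 genes, with every CG pair in capitals, because together they span the pattern. Cldn5 (chr16:18776597-18776846, plus strand, 12 CG pairs) and Slco1c1 (chr6:141524104-141524353, plus strand, 0 CG pairs) are both abundant barrier genes. P2ry12, a microglial receptor (chr3:59262986-59263235, minus strand, 3 CG pairs), and Cldn1 (chr16:26371840-26372089, minus strand, 14 CG pairs) were both at 0 in all 4 libraries.
Cldn5: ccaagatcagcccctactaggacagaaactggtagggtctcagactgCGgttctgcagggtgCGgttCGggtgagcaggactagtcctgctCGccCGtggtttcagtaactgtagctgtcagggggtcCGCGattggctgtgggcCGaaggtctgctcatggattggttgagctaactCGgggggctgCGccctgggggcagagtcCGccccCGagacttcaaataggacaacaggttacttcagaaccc
Slco1c1: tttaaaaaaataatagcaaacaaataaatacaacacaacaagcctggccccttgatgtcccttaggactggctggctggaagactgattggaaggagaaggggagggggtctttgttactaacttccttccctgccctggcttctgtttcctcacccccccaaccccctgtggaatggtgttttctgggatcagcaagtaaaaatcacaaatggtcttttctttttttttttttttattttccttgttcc
P2ry12: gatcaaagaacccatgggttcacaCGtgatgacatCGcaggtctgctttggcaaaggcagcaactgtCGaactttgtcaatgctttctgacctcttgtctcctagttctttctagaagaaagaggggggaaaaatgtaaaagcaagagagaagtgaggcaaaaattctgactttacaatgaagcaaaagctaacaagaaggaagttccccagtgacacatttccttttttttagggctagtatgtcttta
Cldn1: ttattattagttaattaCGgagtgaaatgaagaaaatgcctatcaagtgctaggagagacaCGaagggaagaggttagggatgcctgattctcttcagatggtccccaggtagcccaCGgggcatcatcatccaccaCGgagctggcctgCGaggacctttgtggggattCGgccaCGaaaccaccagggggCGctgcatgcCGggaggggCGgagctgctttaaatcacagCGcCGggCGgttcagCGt
Slco1c1 reached 14156 ± 1937 scaled reads from a window without a CG pair, while Cldn1 with 14 pairs was at 0, so the count of CG pairs did not sort single genes.

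Ribosomal protein genes often start at a cytosine within a run of pyrimidines, the 5-prime terminal oligopyrimidine tract that links their translation to growth signals. A start at C followed by at least 4 more pyrimidines was in 12 of 52 ribosomal protein windows (23.1%), against 2.36% of all windows. The annotated start can lie some bases from the one used, so windows without a match may still hold a tract nearby. Rpl38 (chr11:114668560-114668589, plus strand) and Fau (chr19:6057927-6057956, plus strand), which encodes a small subunit protein, are shown as 2 abundant examples, from 20 bases before to 10 after the start, with the pyrimidine run from the start on in capitals.
Rpl38: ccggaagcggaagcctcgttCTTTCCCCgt
Fau: ggacgtgcgcgcccccacttCTTCCTCTTT
Rpl38 had 6230, 7570, 9248 and 17536 scaled reads and Fau 1647, 4878, 2018 and 4510, both lowest in WT1.

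Most markers of other cells of the brain were low or absent. In such bulk samples, fewer cells of a type and less RNA per cell cannot be told apart. The counts below are to be read against 27.4% of all symbols above 0 in all 4 libraries and 50.6% at 0 throughout, since the shares at 0 of the microglial (46.7%), neuronal (55.6%) and fibroblast (45.5%) lists are near the latter. Of 15 microglial genes 1 was above 0 in all 4 libraries and 7 were at 0 throughout, among them P2ry12, Tmem119, C1qa, C1qb, Trem2, Tyrobp and Fcer1g. The detected member was Laptm5, a lysosomal protein, at 1456, 520.2, 1306 and 542 scaled reads. Leukocyte genes were above 0 in all 4 in 0 of 13 cases and at 0 throughout in 9, Ptprc (CD45) among them. No neuronal gene of 18 was above 0 in all 4, and 10 were at 0 throughout, including Snap25 and Syt1. Oligodendrocyte genes followed with 1 of 14, and Mbp, Mog, Mag, Mobp and Sox10 were at 0 throughout. Summed over the list, microglial genes took 0.0074% to 0.0230% of reads, neuronal genes 0.00178% to 0.0107% and leukocyte genes 0 to 0.00282%.

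Markers of perivascular cells, which wrap the same vessels, were mostly low in level. List medians were 26.9 scaled reads for pericytes, 39.2 for smooth muscle and 18.6 for fibroblasts. Of 15 pericyte genes 2 (13.3%) were above 0 in all 4 libraries and 4 (26.7%) at 0 throughout, namely Anpep, Cox4i2, Atp13a5 and Art3. The latter share lies below the 50.6% of all symbols. Mcam, which endothelial cells also express, held 85.7% of the reads of the list with 4858, 3613, 5564 and 4065. The defining marker Pdgfrb had 339, 91.8, 0 and 0 scaled reads and Rgs5 356, 680.3, 107 and 114, higher in WT1 and WT2 than in WT3 and WT4. Smooth muscle genes were above 0 in all 4 in 3 of 10 cases (30%), near the 27.4% of all symbols. Only 1 (10%) was at 0 throughout, against 50.6%. Smtn, smoothelin, held 79.8% of their reads with 4725, 2343, 3203 and 6356, while Acta2, smooth muscle actin, had 159.8, 245, 66.7 and 1.99 and Tagln 255, 0, 142 and 296. Of 11 fibroblast genes 2 were above 0 in all 4 and 5 at 0 throughout, among them Lum and Dpt.

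Higher values were found for single genes of the astrocyte and choroid plexus lists and for the hemoglobins. Glul, glutamine synthetase, had 12052, 10802, 9528 and 11386 scaled reads and Apoe, apolipoprotein E, 4517, 3835, 5473 and 1043, lowest in WT4. Of the 17 astrocyte genes 5 were above 0 in all 4 libraries, 8 in some and 4 in none, and 8 averaged 100 scaled reads or more, among them Sox9 (545, 675, 834 and 895). The markers Aqp4, Aldh1l1 and S100b were among those at 0, and Gfap, added after its values were seen, had 1.82, 0, 0 and 0. Enpp2, autotaxin, was at 5397, 3601, 5345 and 2101 and Ttr, transthyretin of the choroid plexus, at 4692, 337, 1006 and 0, with Folr1, Kcnj13 and Foxj1 at 0 throughout. Hemoglobins were high, with Hba-a1 at 4300, 12538, 7171 and 5781, Hbb-bs at 2759, 7643, 5106 and 3970 and Hbb-bt at 1757, 4427, 2886 and 2400, all highest in WT2 and lowest in WT1. Hba-a1 had the same values as its copy Hba-a2, so reads of the 2 copies cannot be told apart. Of the same list Slc4a1, the anion exchanger of the red cell membrane, and the embryonic globin Hbb-bh1 were at 0. The erythroid list summed to 18802, 50747, 31469 and 26276 scaled reads, where copies with equal values count more than once. The part of red cells, or of free RNA from them, in other results was not tested.

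Endothelial genes of other vessel beds were given the same check. Of 7 lymphatic genes, Flt4 was above 0 in all 4 libraries, 4 were above 0 in some, led by Mmrn1 (787, 278, 0 and 1.99 scaled reads), and Prox1 and Lyve1 were at 0 throughout. Of 10 genes of liver sinusoids 8 were at 0 throughout, Stab2 and Clec4g among them, and Stab1, a scavenger receptor, had 507, 979, 906 and 653 scaled reads. Of the heart and muscle list 2 of 10 were above 0 in all 4, and Mgll, monoacylglycerol lipase, held 83.9% of its reads with 1934, 3743, 5514 and 3250. Its members at 0 throughout, 4 of 10 against 50.6% of all symbols, were Cd36, the fatty acid translocase, Lpl, Meox2 and Rbp7. Tcf15, a factor of muscle and heart endothelium, was low at 228, 112, 49.4 and 65.7. The lung list had 5 of 10 above 0 in all 4, led by Car4 with 1531, 2436, 1768 and 3843, and Tbx3 had 1461, 1335, 1025 and 1505 and Kitl 1011, 1576, 1145 and 1188. Sftpc, a surfactant gene of the lung epithelium, was at 0. Car4 is also a gene of brain capillaries, and no comparison with lung cells could be made here.

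Reproducibility rose with level. For symbols with a mean of 10 to 30 scaled reads the median CV was 200%, which is the value for a symbol seen in 1 library only, and 97.4% were at 0 in at least 1 library. The median CV fell to 79.8% between 100 and 300, 35.5% between 1000 and 3000 and 20.3% from 10000 on. At 100 to 300 scaled reads, which is far more than the value of 3 reads, 39.7% of symbols were still at 0 in at least 1 library. In total 9916 symbols reached 100 scaled reads in some library, and 3313 of these were at 0 in another. Between libraries, the rank correlation over 1943 symbols averaging 1000 or more was 0.643 to 0.776 (Spearman's rho across genes, which are not independent replicates).

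**Figure D5:**
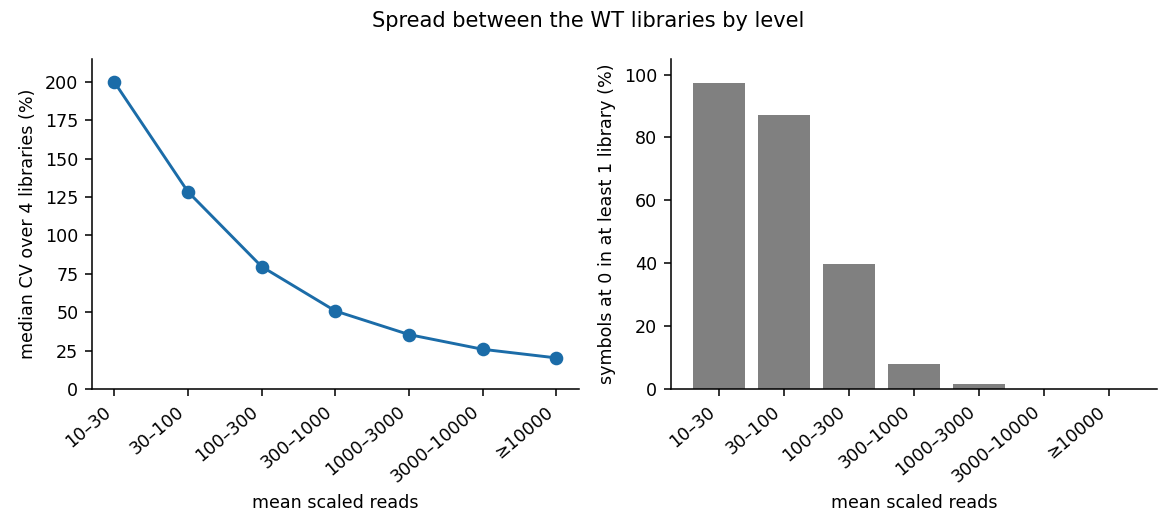
Left, median coefficient of variation over the 4 WT libraries in percent for symbols in 7 classes of mean scaled reads. Right, percent of symbols of each class listed at 0 in at least 1 library. The median CV falls from 200% to 20.3%, and the share with a 0 from 97.4% to 0.

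Among genes averaging 1000 scaled reads or more the steadiest were Atp2b1, a plasma membrane calcium pump (2162, 2077, 2069 and 2101), and Cotl1, an actin-binding protein (1942, 1860, 1919 and 1951), with CVs of 2% and 2.13%. Psap, a lysosomal precursor, combined a low CV (3.75%) with a high level (29717, 32317, 31806 and 30658). In all 82 such symbols had a CV under 10%. At the other end, Cadm1, an adhesion molecule, had 4498, 0, 3216 and 4901, Tsc2, an inhibitor of mTOR complex 1, 4073, 0, 3492 and 661, and the cAMP-responsive factor Crem 4473, 0, 850.4 and 4122, each at 0 in WT2. Pmp22 had 1088, 1726, 3334 and 0 with the 0 in WT4. Such zeros occurred in 22 of the 1943 symbols, so that a single 0 in these tables does not by itself show that a gene is silent.

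Libraries differed along gene length and ribosomal protein content. Symbols with less than 1 kilobase of exon took 2.33%, 3.77%, 2.30% and 4.04% of reads, and those with 8 kilobases or more 18.5% to 24.4%, lowest in WT4 and highest in WT3. Ribosomal protein and short-gene shares were both higher in WT2 and WT4 than in WT1 and WT3. Xist, the long RNA of the inactive X chromosome, had 17929, 8255, 22931 and 4611 scaled reads and Malat1 27650, 14952, 19336 and 13189, both lowest in WT4 and WT2. The Y-linked Ddx3y had 131, 1.47, 275 and 354, where the WT2 value stands for about 1 read, and Xist was above 0 in all 4. The other 3 Y-linked genes were each above 0 in some libraries only. Per kilobase Eif2s3y had 15.5 scaled reads, Uty 0.0377 and Kdm5d 0.0244. The endothelial identity share was also higher in WT1 (3.02%) and WT3 (3.14%) than in WT2 (2.96%) and WT4 (3%), within a narrow range. The part of library depth or length bias in these orders was not tested.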

How the data were processed

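Total RNA of sorted brain endothelial cells from 4 wild-type libraries was analysed. The authors deposited, per library, 1 log2 value per gene symbol, and the labels' protocols describe Trizol extraction, 500 ng of RNA and a Lexogen Quant-Seq library. Per the submitters' processing notes, Bowtie2, edgeR and the mm10 build were used, while no version, annotation or log offset is given in these notes. The deposited log2 values were raised to the power of 2, a listed 0 staying 0, and the result is called scaled reads. The value of 1 read was estimated from the steps between low values, of which 87.1% to 100% in a library lay near whole multiples, and all depths rest on it. Of 24421 symbols in a table, 24394 were in all 4 and were used, and 24026 of these (98.5%) matched a gene of GENCODE M21 on GRCm38, whose union of exons gave the length. Promoter windows came from RefSeq on GRCm38.p6.

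Levels are means ± SD over 4 libraries, and no test was made. A set of genes was named by rule: the 4 markers, the 30 highest symbols with and without division by length, the 5 highest of each list or family, list members at 0, and the extremes of spread. Genes outside it were named after their values were seen, namely Abcg2, Adgra2, Axin2, Cd93, Eef1a2, Fau, Fzd4, Gapdh, Gfap, Lef1, Lrp5, Mki67, Ndufa4l2, Ndufs8, Ocln, Plvap, Reck, Rpl26, Sox7, Tjp1, Tspan12 and Vegfa, and the ribosomal and cytochrome oxidase copies. The members and lists were chosen with earlier results of these data known. Alternatives were other detection limits, each library left out, other averages, scalings and lengths, and shares with Rn45s left out. The computation was tested on simulated data. Python 3.11.15, numpy 2.4.6, pandas 2.3.3, scipy 1.17.1 and matplotlib 3.10.9 were used.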

Additional observations from a re-analysis of the deposited data

Results flagged for a closer look

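In each group of 4 values, the highest or lowest library was compared with the other 3 by Dixon's ratio, the gap to the nearest library as a part of the whole range, against its 95% critical value. Of 245 levels and shares examined, 18 passed it. The chance rate of about 1 in 20 holds only for normally distributed values. A gene seen in 1 library only has a ratio of 1 and passes at any level, as Gfap, Gja5 and Ndufa4l2 did. Adgra2, Gfap, Ndufa4l2, Ndufs8, Reck and Vegfa were also named after their values were seen. The count of 18 can therefore not be compared with that rate. No cause was tested.

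Among abundant genes, Sepp1 stood apart in WT3 with 35242 scaled reads against 54388 to 55762, Serpinh1 in WT4 with 62954 against 48746 to 49839, and Fn1 in WT3 with 79961 against 58130 to 61530. Lamb1 had 643 in WT4 against 1836 to 1908, and Apln 5312 in WT2 against 6144 to 6299. Sepp1, Lamb1 and Apln were low in the library named, Serpinh1 and Fn1 high.

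For genes at low levels 1 library held most of the signal. These were Ndufs8 in WT4 (1346 scaled reads), Ndufa4l2 in WT2 (4.36, about 3 reads), Cldn12 in WT1 (661), Adgra2 in WT4 (317), Vegfa in WT3 (273), Col1a1 in WT4 (266), Col1a2 in WT1 (114), Reck in WT3 (96.3), Gja5 in WT3 (34.6) and Gfap in WT1 (1.82, about 3 reads). The same held for the share of reads of Hox factors in WT1 (0.00344%), of the list of endothelium of Hox-positive regions in WT1 (0.000474%), and of caseins and major urinary proteins in WT2 (4.43e-05%).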

How the results depend on the processing

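No paired analysis was possible because only the wild-type libraries were used, so there is no second group with the same replicate numbers. The number of symbols above 0 in all 4 libraries, 6690, was 6993 to 7479 with 1 library left out, 6422 with at least 3 scaled reads, 6139 with at least 10 and 4693 with at least 100. The number at 0 throughout, 12351, became 12659 to 12954 with 1 library left out. The share of the 100 highest symbols, 33.4%, was 24.8% with Rn45s left out of the total, which takes Rn45s out by construction. Ranks depended on length. Without division by length Cldn5 went from rank 20 to 39, Kdr from 214 to 34 and Pecam1 from 221 to 67, and with the longest transcript as length Cldn5 was at 30. With 1 library left out Cldn5 ranked 19 to 22, the latter without WT2. Over 154 named genes other than the 4 markers, 1385 of 1386 alternative levels moved by no more than the SD between libraries. Of these, the 616 with 1 library left out and the 154 medians cannot move further by arithmetic, so they are no check. The geometric mean of value + 1 moved 1 of 154 levels by more than the SD. The geometric mean of value + 16, and scaling by the library total or the upper quartile, moved 0 of 154. Ranks of these genes moved by more than their own SD in 92 of 154 cases without division by length. With the longest transcript 43 of 154 did so, and with 1 library left out 14 of 616. Of 20 gene pairs in 1 order per kilobase in 4 of 4 libraries, 10 kept it in 4 of 4 without division by length, a check added after the data were seen, and 4 reversed in all. Of 588 alternative counts over 84 lists, 551 stayed within 1.5 times. Depth limits low genes, as 3 reads equal 1.83 to 4.32 scaled reads.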
